A study of Mus musculus with 12 samples.

Results

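The libraries described here are of the mouse mammary tumour line 4T1 (strain BALB/c), which serves to model breast cancer without hormone receptors, and whose cells carried the CRISPR guide sgRNA1 against Cebpd, set against 4T1 cells that carried a guide against the Rosa26 locus, both given vehicle. Members were chosen by the library titles: 2 sgRNA1 and 2 control libraries, 4 of the 12 in the series, with all 13601 testable genes. The labels give the genotype of the sgRNA1 libraries as Cebpd knockout and that of the Rosa26 libraries as control. The other 8 libraries are sgRNA2 in vehicle, and control, sgRNA1 and sgRNA2 after 24 hours of interferon gamma (IFN-gamma) at 20 ng/ml, each with 2 libraries. The target sites of the guides, and whether each line is a clone or a pool, are not stated in the labels. Whether libraries of 1 group were grown separately is not stated either, so p-values measure only the spread between these libraries, which may be technical. The sgRNA1 and control cells are separate lines, so an effect of the guide and any other difference between these lines cannot be told apart in these 4 libraries.

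The product of Cebpd, C/EBPδ, is a transcription factor of the leucine zipper type that binds DNA as a homodimer or with C/EBPβ and other family members. It is kept low in many resting cells and is induced by interleukin 6, interleukin 1 and bacterial products, and it is known for acting on acute phase and inflammatory genes. The interferon genes described below belong to another pathway: interferons act through JAK kinases and STAT factors on IRF1, the antigen presentation machinery and antiviral effectors, and untreated cells keep a low level of many of these mRNAs. The comparison asks how the transcriptome of unstimulated 4T1 cells differs when Cebpd is targeted.

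Total counts were 19574686 and 19244015 in the control libraries and 20221146 and 16912710 in the sgRNA1 libraries. Levels are given in CPM, counts normalised to the effective library size, in the order control library 1, control library 2, sgRNA1 library 1 and sgRNA1 library 2. Epithelial identity mRNAs were present in all 4, with Epcam at 272, 270, 276 and 273 CPM and Cdh1 (E-cadherin) at 335, 328, 299 and 294 CPM. Of markers of other cell types, the summed level of 14 myeloid markers (7 of them in the table, none at 0 in all 4 libraries) was 14.7 to 16.7 CPM in control and 28.8 to 30.3 CPM with sgRNA1. Of its 5 tested members 3 rose, against 25.6% of all genes tested. They were S100a8 (below), Csf1r (0.775, 0.734, 3.72 and 1.99 CPM, 1.93 ± 0.37 on the log2 scale) and Cd14 (9.81, 10.1, 20.5 and 20.0 CPM, 1.02 ± 0.10). The sum of 10 fibroblast markers (3 in the table) was 14.3 to 15.2 and 19.1 to 21.03 CPM, with rises of both tested members, Col1a1 (2.69 ± 0.51, and 3.47 without control library 2) and Pdgfra (0.36 ± 0.11, not called without control library 2, adjusted p = 0.0724, or sgRNA1 library 1, adjusted p = 0.0917). That of 9 endothelial markers (4 in the table) was 31.9 to 33.9 and 34.0 to 36.2 CPM. Of 10 lymphocyte markers, 1 was in the table, at 0.943 to 1.34 and 1.15 to 1.46 CPM, and none of 6 erythroid markers was. The share of counts from mRNAs of the mitochondrial genome was 0.670% and 0.620% in the control and 0.814% and 0.839% in the sgRNA1 libraries. In bulk RNA, fewer cells of a type and less RNA per cell cannot be told apart, and the part of these shares in the results was not tested.

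The mRNA of the targeted gene was not lower in the libraries labelled Cebpd knockout. Cebpd (ENSMUSG00000071637.5, chr16:15887286-15891031, plus strand, GRCm38) had 176, 136, 271 and 222 counts, or 9.09, 7.13, 13.6 and 13.4 CPM. Both sgRNA1 libraries lay above both control libraries, by 0.74 ± 0.12 (SE) on the log2 scale (edgeR's quasi-likelihood test, adjusted p = 5.53e-05). A guide can disrupt the protein while its mRNA is still made and counted, so this level checks the label in neither direction, and the libraries are named by their guide here. The gene overlaps Spidr on the opposite strand, whose reads an unstranded kit cannot separate; Spidr itself had a log2 difference of -0.02 (adjusted p = 0.883).

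Of 12 listed C/EBP family members and partners, 10 were tested, of which 2 rose and 4 fell, against 25.6% higher and 26.9% lower among all genes tested. Besides Cebpd, Cebpb, the family member most often paired with it in inflammation, had 96.0, 95.1, 113 and 106 CPM. That rise of 0.19 ± 0.07 (adjusted p = 0.0316) did not hold without sgRNA1 library 1 (0.15, adjusted p = 0.21) or without either control library (adjusted p = 0.0885 and 0.115). Cebpg, whose product lacks an activation domain and pairs with other members, fell from 82.8 and 78.1 to 50.3 and 51.8 CPM (-0.66 ± 0.06, adjusted p = 9.5e-08). The other falls were Cop1 (-0.42) and Trib1 (-0.33), whose products act together in C/EBP protein degradation, and Cebpz (-0.26). Ddit3, Trib2, Trib3 and Det1 had log2 differences of 0.09, 0.01, -0.21 and -0.23 and did not pass the test; Trib3 passed it without sgRNA1 library 2 (adjusted p = 0.046). Cebpa was not tested, for lack of counts.

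Across the transcriptome, many genes differed and most of them by little. At an adjusted p below 0.05, 7141 of 13601 genes (52.5%) were called, 3487 higher with sgRNA1 (25.6%) and 3654 lower (26.9%). Of these, 4899 differed by less than 1.5-fold, and the median absolute log2 difference of called genes was 0.44. Larger changes, in 817 genes (6.01%) at 2-fold or more, were mostly rises: 671 genes (4.93%) were called at 2-fold or more higher and 146 (1.07%) at 2-fold or more lower, or 826 and 96 with upper quartile scaling. Scaling libraries by their upper quartile in place of TMM (trimmed mean of M-values) moved the median of all genes from 0.03 to 0.13 and the calls to 4571 higher and 2713 lower, so a small median below is to be read against that shift. A test against a 1.5-fold change called 488 genes higher and 285 lower. Counts of called list members below are to be read against the 25.6% higher and 26.9% lower over all genes tested.

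**Figure D1:**
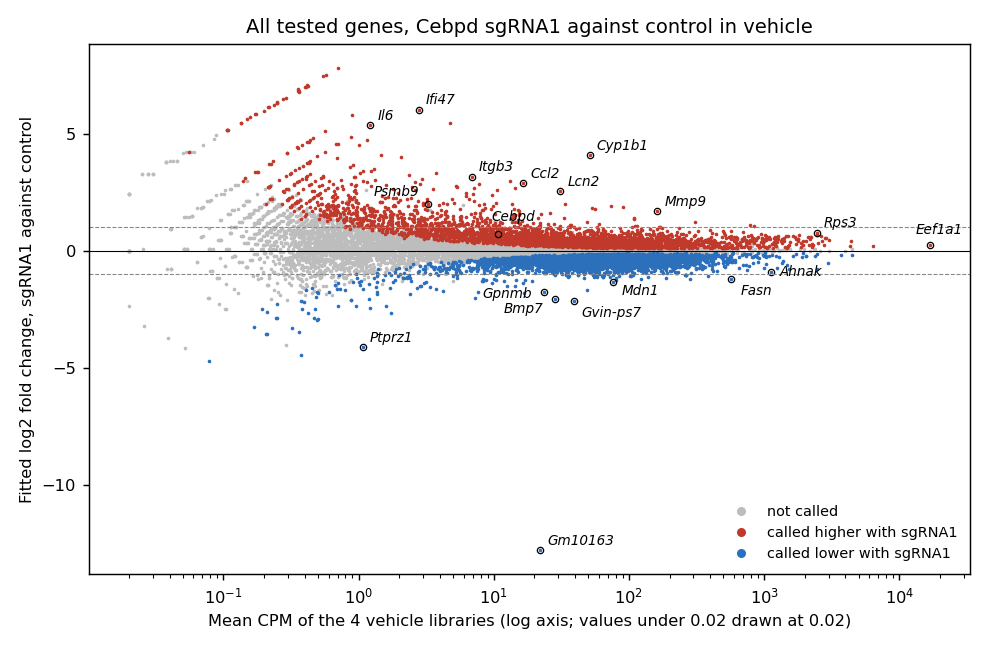
Fitted log2 fold change of sgRNA1 against control in vehicle (vertical axis) for each of the 13601 tested genes against the mean CPM of the 4 libraries (log axis); coloured points are called genes, and named genes are labelled. The 671 rises of 2-fold or more spread mainly over lowly expressed genes, and highly expressed genes such as Eef1a1 and Rps3 differed by less than 1 on the log2 scale.

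Among the 12 largest rises were a metabolic enzyme, a cytokine and an interferon-inducible gene. Cyp1b1, a cytochrome P450 of steroid and aromatic hydrocarbon metabolism (chr17:79701537-79715061, minus strand), had 6.61, 4.93, 97.3 and 96.2 CPM. It was 16.7-fold higher with sgRNA1 (4.07 ± 0.09, adjusted p = 3.35e-15), with the groups far apart. The libraries of the groups did not overlap for 75.3% of all genes tested, 38.8% with sgRNA1 higher and 36.6% with it lower. The largest rises and falls, and the genes picked from each list for the size of their change, were chosen among genes without overlap. Where its absence is stated for them, it is a description and not support for a difference. Il6, the cytokine that drives the acute phase response, had 1 count in each control library and 0.0516, 0.0524, 2.36 and 2.41 CPM. Its ratio was 45.9 with a 95% counting interval of 12.3 to 385, which covers counting error only (adjusted p = 1.9e-07). Ifi47, an interferon-inducible GTPase, was nearly silent in control and had 0.155, 0, 5.43 and 5.55 CPM, with a ratio of 70.3 (23.7 to 344 by counting, adjusted p = 3.52e-10). Its fitted change of 6.03 was 9.77 without control library 1 and 5.09 without control library 2.

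Other rises of the 12 with the largest fitted change were of genes with varied roles. Fgfr1, a fibroblast growth factor receptor, had 0.155, 0, 1.76 and 2.11 CPM, with a ratio of 24.6 (8.08 to 122 by counting), and its fitted change of 4.52 was 8.26 without control library 1 and 3.58 without control library 2. Cd40, a receptor of the tumour necrosis factor family, had 0.826, 0.524, 5.84 and 7.84 CPM (3.32 ± 0.27). Icam1, the ligand of leukocyte integrins, had 0.207, 0.210, 2.16 and 2.35 CPM (3.40 ± 0.30, adjusted p = 4.36e-08). All of these had higher values in both sgRNA1 libraries than in either control library. Acod1, the enzyme that makes itaconate in activated macrophages, had 0.155, 0.157, 2.16 and 3.44 CPM (4.09 ± 0.37). Ndrg2 rose by 3.99 ± 0.35 and Tuba8, a tubulin, by 3.41 ± 0.58. Mrgprb2, a receptor known from mast cells, had 1 and 2 counts in control and a ratio of 28.5 (counting interval 9.41 to 141). Pagr1a had 0.310, 0.105, 6.79 and 11.9 CPM and a fitted rise of 5.44 ± 1.44 (adjusted p = 0.00396), with an adjusted p of 0.0537 by DESeq2 and 6.39 without control library 1. It overlaps the near-identical Pagr1b, between which reads may be split, so its value is uncertain.

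**Figure D2:**
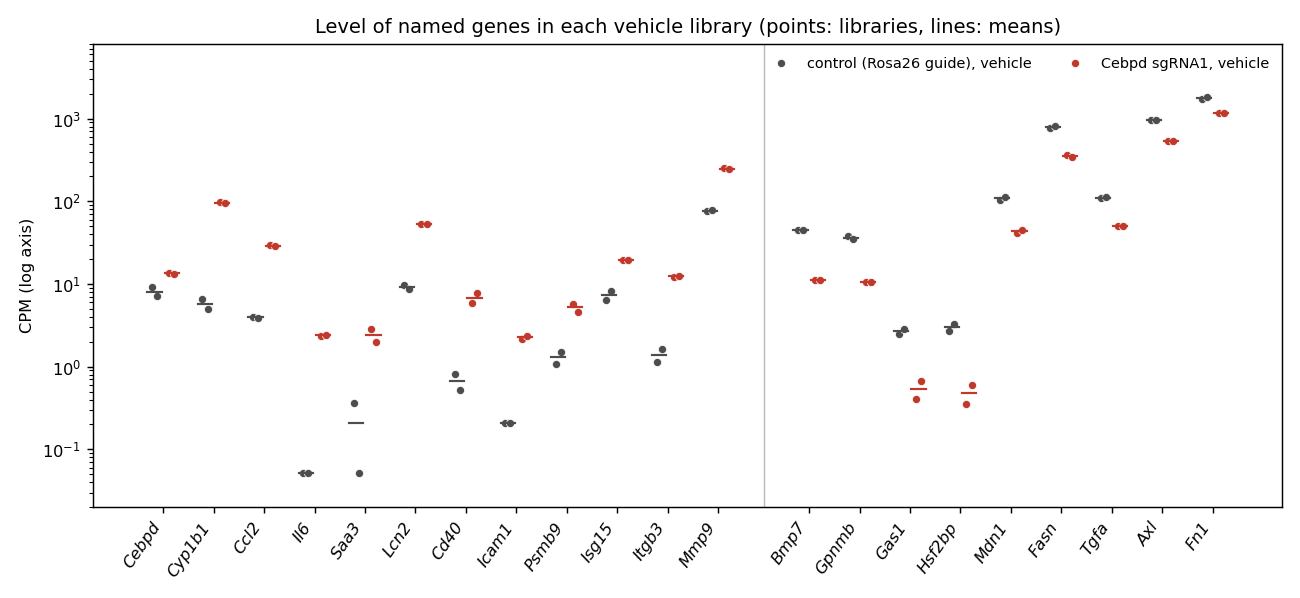
CPM (log axis) of named genes in each of the 4 vehicle libraries of control and sgRNA1. Points are libraries, and horizontal lines are group means of 2 libraries. Cyp1b1, Ccl2, Lcn2 and Mmp9 lie higher with sgRNA1 than in control in both libraries, Bmp7, Fasn, Tgfa and Axl lie lower, and Cebpd lies higher.

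The 250 bases before the annotated start of 6 genes are printed because their mRNAs rose and C/EBP or interferon motifs are known from such promoters. Sequences are from RefSeq on GRCm38.p6, 5′ to 3′ on the gene's strand, and capitals mark matches on either strand to TTGCNNAA (C/EBP, with 2 free bases), GAAANNGAA (interferon-stimulated response element, ISRE) or TTCNNNGAA (STAT site).
Il6 (chr5:30012864-30013113, plus strand): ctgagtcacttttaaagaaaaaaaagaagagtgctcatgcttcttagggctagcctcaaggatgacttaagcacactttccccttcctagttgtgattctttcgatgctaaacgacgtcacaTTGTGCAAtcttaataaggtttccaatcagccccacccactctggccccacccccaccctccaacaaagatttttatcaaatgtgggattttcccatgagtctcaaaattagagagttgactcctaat
Saa3 (chr7:46715677-46715926, minus strand): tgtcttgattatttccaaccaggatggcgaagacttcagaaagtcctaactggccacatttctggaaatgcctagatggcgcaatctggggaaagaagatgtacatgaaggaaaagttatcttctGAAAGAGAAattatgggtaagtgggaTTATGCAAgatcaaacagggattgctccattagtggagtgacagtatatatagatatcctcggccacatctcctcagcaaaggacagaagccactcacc
Lcn2 (chr2:32387740-32387989, minus strand): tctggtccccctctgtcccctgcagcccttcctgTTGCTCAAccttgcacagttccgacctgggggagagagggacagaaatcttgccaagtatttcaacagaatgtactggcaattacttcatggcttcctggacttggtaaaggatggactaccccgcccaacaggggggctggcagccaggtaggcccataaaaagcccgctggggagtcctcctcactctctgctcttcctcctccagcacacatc
Ifi47 (chr11:49076337-49076586, plus strand): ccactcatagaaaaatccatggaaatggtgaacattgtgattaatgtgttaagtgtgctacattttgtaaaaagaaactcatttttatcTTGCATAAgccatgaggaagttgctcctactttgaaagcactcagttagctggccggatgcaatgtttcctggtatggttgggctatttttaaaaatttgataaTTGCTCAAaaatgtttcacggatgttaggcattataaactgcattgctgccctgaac
Isg15 (chr4:156200819-156201068, minus strand): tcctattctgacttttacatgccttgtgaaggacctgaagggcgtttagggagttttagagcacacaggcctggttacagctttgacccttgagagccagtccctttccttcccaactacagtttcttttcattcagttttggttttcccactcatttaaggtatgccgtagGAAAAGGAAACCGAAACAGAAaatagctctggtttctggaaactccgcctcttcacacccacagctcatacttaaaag
Icam1 (chr9:21015690-21015939, plus strand): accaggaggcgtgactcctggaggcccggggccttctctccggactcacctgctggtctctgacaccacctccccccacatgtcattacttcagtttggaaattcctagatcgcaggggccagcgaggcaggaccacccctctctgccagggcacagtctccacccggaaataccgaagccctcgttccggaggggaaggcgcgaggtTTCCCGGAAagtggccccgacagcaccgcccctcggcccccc
Il6, Lcn2 and Saa3 each held a C/EBP match, starting 128, 216 and 99 bases before the start site. Ifi47 held a C/EBP match at 161 and another at 57 bases before the start, and no match to the other motifs. In Isg15 the capitals are 3 ISRE matches that overlap each other, the first 78 bases before the start, and Saa3 held an ISRE match at 125. Icam1 held a STAT match 42 bases before the start. Among 12837 windows of the same length from 10026 tested genes, 7.43% held TTGCNNAA, 6.15% GAAANNGAA and 5.89% TTCNNNGAA. The windows of Cyp1b1, Acod1, Psmb9, S100a8, Oasl1 and Xaf1, which also rose, held none of these. The 6 printed windows are a choice, and no share can be read from them. A match is a description of these letters and not a binding site. Windows were at hand for 67.2% of the genes called at 2-fold or more higher and 64.4% of those lower, so a comparison of motif shares between them would be void.

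Genes that answer to interferons were higher with sgRNA1 although no interferon was added. Of 31 tested IFN-gamma response genes, 19 rose and 3 fell, with a median log2 difference of 1.00 against 0.03 over all genes tested. With genes without control counts set at their bound, the median was 0.97, and leaving out each library in turn it was 0.84 to 1.31. Gbp2, a guanylate-binding GTPase, had 0.929, 1.52, 4.28 and 6.21 CPM (2.07 ± 0.21). These levels were far below the 1741 and 1730 CPM of Gbp2 in control libraries given IFN-gamma. Irf1, the transcription factor that relays the response, had 22.6, 26.6, 48.8 and 49.7 CPM (1.00 ± 0.06, adjusted p = 9.78e-10). Nos2, the inducible nitric oxide synthase, had 6.87, 7.44, 21.4 and 20.2 CPM (1.54 ± 0.08). In each of these genes the 2 groups did not overlap.

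The IFN-gamma response genes that fell included a regulator and a synthetase. Socs1, the feedback inhibitor of JAK kinases, fell by 0.66 ± 0.12, and Wars, the tryptophanyl-tRNA synthetase, by 0.62 ± 0.05. Cxcl9, Cxcl10, Cxcl11, Gbp5, Gbp6, Iigp1, Ciita, Batf2 and Apol6 did not pass the test, though Gbp6 did without sgRNA1 library 1 (adjusted p = 0.0054) and Ciita without either that library or control library 1 (adjusted p = 0.0465 in each case). Cxcl10, a T cell chemokine, had 0.878, 1.57, 1.01 and 0.965 CPM (adjusted p = 0.425). Tgtp2 had no count in either control library and 11 and 5 counts with sgRNA1, but it shares near-identical sequence with Tgtp1, as do members of the H2, Raet1, Prl3d, Serpina3, Oas and Gbp families with each other.

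Among 35 type I interferon-stimulated genes, 22 rose and 1 fell, with a median of 0.69. Isg15, the ubiquitin-like modifier, had 6.40, 8.33, 19.3 and 19.2 CPM (1.39 ± 0.12, adjusted p = 4.14e-08). Irf7, the transcription factor that amplifies interferon production, had 0.826, 0.786, 2.01 and 2.05 CPM (1.33 ± 0.23). Xaf1, Rtp4 and Oasl1 rose by 1.53, 1.44 and 1.40. The list did not move as a block, since 12 members, among them Mx1, Mx2, Ifit2, Ifit3 and Oas3, did not pass the test. Ifit3b was the member that fell (-2.60 ± 0.93, adjusted p = 0.0254), from 0.620 and 0.105 to 0 and 0.121 CPM, with adjusted p = 0.632 without control library 1 and 0.213 without sgRNA1 library 1.

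MHC class I presentation genes showed 19 rises and 1 fall in 24 tested, with a median of 0.55. The immunoproteasome subunit genes were among the rises: Psmb9 had 1.08, 1.52, 5.79 and 4.65 CPM (2.01 ± 0.20, adjusted p = 2.32e-07), and Psmb8 had 12.4, 13.1, 42.3 and 36.6 CPM (1.63 ± 0.08). Smaller rises were measured for the peptide transporter gene Tap1 (0.83), the class I heavy chains H2-D1 (0.46) and H2-K1 (0.43) and the light chain B2m, at 207, 209, 255 and 277 CPM (0.35 ± 0.05). H2-Q7, a nonclassical heavy chain, rose by 1.76 ± 0.12. The chaperone gene Canx fell by 0.13 ± 0.04 (adjusted p = 0.0121), a call lost without control library 1 (adjusted p = 0.0947) or sgRNA1 library 1 (adjusted p = 0.0795) and with upper quartile scaling (adjusted p = 0.616). H2 alleles of BALB/c mice differ from the reference genome, which can lower or shift their counts.

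Of 9 tested MHC class II genes, 3 rose (33.3%, against 25.6% of all genes tested) and none fell. Cd74, the invariant chain, had 0.516, 0.734, 4.83 and 5.73 CPM (3.06 ± 0.21, adjusted p = 2.98e-09), with both sgRNA1 libraries above both control libraries. H2-Ab1, a class II beta chain, had no count in control and 0.956 and 0.483 CPM with sgRNA1, which makes it at least 4.61-fold higher against a floor of 3 counts per library. H2-DMa, which helps load peptides, rose by 0.72 ± 0.21 (adjusted p = 0.00802), not called without control library 2 (adjusted p = 0.0699) or sgRNA1 library 1 (adjusted p = 0.117). The alpha chain gene H2-Aa had no count in any of the 4 libraries. Of the 15 tested checkpoint and natural killer cell ligand genes, 8 rose and 1, Cd276, fell, with a median of 0.87 that was 0.33 without control library 2. Nt5e (CD73), which makes adenosine, had 113, 110, 230 and 222 CPM (1.02 ± 0.04), the death receptor gene Fas 2.94, 3.88, 13.2 and 13.997 CPM (1.99 ± 0.14). Cd274 (PD-L1), at 1.96, 1.36, 1.21 and 2.11 CPM, did not pass the test (-0.04 ± 0.37, adjusted p = 0.943), and the groups overlapped. The fall of Cd276 was 0.21 ± 0.06 and was not called without control library 1 (adjusted p = 0.0635) or sgRNA1 library 1 (adjusted p = 0.0573).

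Chemokines and growth factors that draw or support myeloid cells rose in 11 of 18 tested members and fell in 1, with a median of 0.58. Ccl2, the monocyte chemokine (chr11:82035571-82037453, plus strand, overlapping Gm17268 on the other strand), had 4.03, 3.93, 29.8 and 28.5 CPM. It was 7.33-fold higher (2.87 ± 0.10, adjusted p = 6.11e-13), and its neighbour in the family Ccl7 had 2 and 0 counts in control against 25 and 24. The neutrophil chemokines Cxcl5 (275, 287, 505 and 519 CPM, 0.87 ± 0.05) and Cxcl1 (203, 194, 274 and 280 CPM, 0.48 ± 0.05) rose less. Csf2 (GM-CSF) had 2.58, 2.36, 5.03 and 5.07 CPM (1.03 ± 0.19, adjusted p = 0.000183). Cxcl3, of the same family as Cxcl1, was the member that fell, from 23.1 and 24.4 to 9.56 and 10.6 CPM (-1.24 ± 0.09). Csf3 (G-CSF), at 176, 174, 178 and 165 CPM, did not pass the test (-0.03 ± 0.05).

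Acute phase and C/EBP-regulated genes, those for which the factor is known, were not lower with sgRNA1. Of 16 tested, 11 rose and none fell at an adjusted p below 0.05, with a median of 0.53. Lcn2, the iron-scavenging lipocalin, had 9.60, 8.70, 52.9 and 52.9 CPM (2.53 ± 0.08, adjusted p = 8.54e-14). Cp (ceruloplasmin) had 40.0, 37.1, 141 and 141 CPM (1.87 ± 0.05). Saa3, a serum amyloid A, had 0.361, 0.0524, 2.82 and 1.99 CPM (3.51 ± 0.43, adjusted p = 2.19e-06), with 5.37 without control library 1 and 2.73 without control library 2. In all 3 genes the groups did not overlap. Serpina3g rose by 3.25 ± 0.24, and S100a8, a calprotectin subunit, had 0, 3, 20 and 27 counts, a ratio of 16.5 (counting interval 5.32 to 83.0). Its fitted change of 3.95 was 2.998 without control library 1 and 7.70 without control library 2. Hif1a, Tlr4, Ltf, Csf3 and Ptgs2 did not pass the test, but Tlr4 did without control library 1 or sgRNA1 library 1 (adjusted p = 0.017 in each case) and Ptgs2 without sgRNA1 library 1 (adjusted p = 0.0257).

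Genes of the NF-kB pathway split between targets and the factors themselves. Of 24 tested, 13 rose and 5 fell, and the 5 that fell were the 5 subunit genes. Rela had 84.1, 83.3, 58.0 and 51.6 CPM (-0.61 ± 0.06, adjusted p = 5.95e-08), Nfkb2 fell by 0.52 ± 0.05 and Nfkb1 by 0.37 ± 0.06. The falls of Rel (0.33 ± 0.12) and Relb (0.34 ± 0.10) were not called without sgRNA1 library 1 (adjusted p = 0.15 and 0.0842) or control library 2 (adjusted p = 0.0526 and 0.117), that of Rel also not without control library 1 (adjusted p = 0.111), and both were lost with upper quartile scaling (adjusted p = 0.117 and 0.0616). Rises beside Il6, Icam1 and Cd40 were of the inhibitor gene Nfkbie (0.91 ± 0.09) and of Il1a, at 60.1, 56.3, 86.9 and 89.8 CPM (0.60 ± 0.06). Tnf, Il1b and Tnfaip3 did not pass the test.

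In the complement list, 6 of 11 tested genes rose and none fell, with a median of 1.36, or 0.89 with genes without control counts at their bound. C1s1, a protease of the first component, had 0.878, 1.36, 5.43 and 5.07 CPM (2.23 ± 0.21), and its partner C1ra had 3.15, 2.41, 7.09 and 7.18 CPM (1.36 ± 0.14). C3, the central component, had 70.7, 69.7, 89.0 and 96.3 CPM (0.40 ± 0.05). C1s2 had no count in control against 15 and 14 counts, and Cfb none against 9 and 9. Among cell death genes, 11 of 25 rose (44%) and 5 fell (20%), against 25.6% and 26.9% of all genes tested. Besides Fas, the inflammatory caspase genes were among the rises: Casp4 had 0.929, 0.524, 3.57 and 3.02 CPM (2.18 ± 0.25), Casp12 rose by 1.59 ± 0.11 and Casp1 by 1.60 ± 0.21. Of the 5 that fell, Bcl2 (-0.59) and Cflar (-0.42), both inhibitors of apoptosis, kept their calls whichever library was left out. Gsdme (-0.50) was not called without control library 1 (adjusted p = 0.0597), and Bak1 (-0.13) and Xiap (-0.13) were not called without control library 1, sgRNA1 library 1 or sgRNA1 library 2 (adjusted p from 0.0971 to 0.289).

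**Figure D3:**
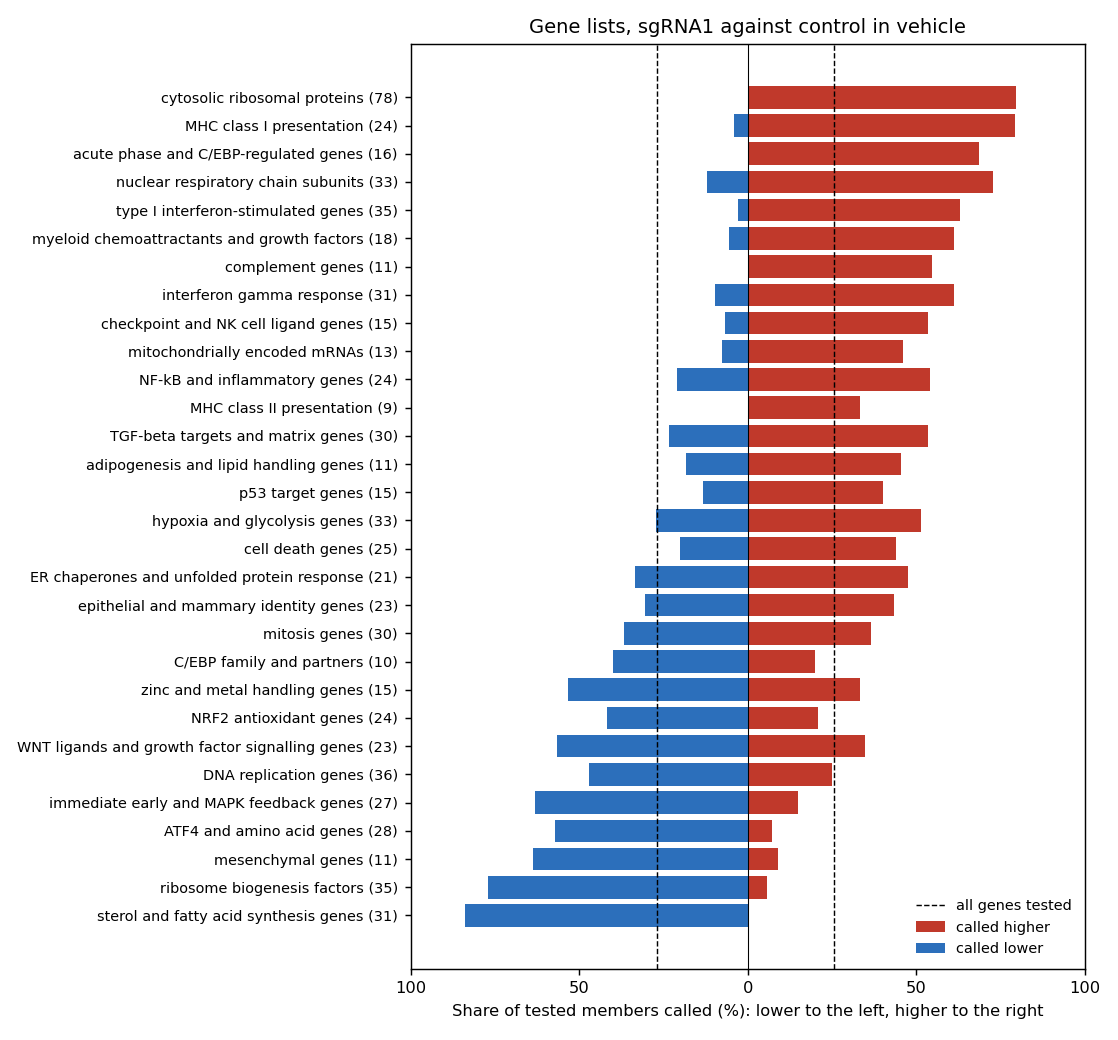
Share of the tested members of each gene list (number tested in brackets) that was called higher (to the right) or lower (to the left) with sgRNA1 in vehicle; dashed lines are the shares over all genes tested, 25.6% higher and 26.9% lower. Ribosomal protein, MHC class I and interferon lists lie to the right, sterol and fatty acid synthesis and ribosome biogenesis to the left.

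The matrix proteases Mmp9, Mmp13 and Mmp10 rose while the matrix proteins Fn1 and Col4a1 fell. Of 30 tested TGF-beta target and matrix genes, 16 rose and 7 fell (53.3% and 23.3%, against 25.6% and 26.9% of all genes tested). The share that fell was below that of all genes. Mmp9, a gelatinase, had 75.7, 78.9, 252 and 244 CPM and was 3.20-fold higher (1.68 ± 0.05, adjusted p = 3.2e-14). Mmp13, a collagenase, had 7.44, 8.12, 22.4 and 23.1 CPM (1.55 ± 0.09), and Mmp10, a stromelysin, had 12.4, 10.9, 29.5 and 32.2 CPM (1.40 ± 0.11). These groups did not overlap. Ccn2, a matricellular protein gene induced by TGF-beta, had 74.6, 74.5, 154 and 153 CPM (1.04 ± 0.05). Fibronectin (Fn1) had 1743, 1815, 1180 and 1159 CPM (-0.61 ± 0.04, adjusted p = 6.99e-10), and the type IV collagen gene Col4a1 had 501, 523, 361 and 337 CPM (-0.55 ± 0.05). Tgfb1 fell by 0.35, and Tgfb2 rose by 0.98.

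Mesenchymal genes showed 7 falls and 1 rise in 11 tested, with a summed level of 6031 to 6179 CPM in control and 4725 to 4766 CPM with sgRNA1. Axl, a receptor tyrosine kinase, had 951, 951, 537 and 536 CPM (-0.83 ± 0.04, adjusted p = 3.31e-11), and Vim (vimentin) had 1588, 1553, 1174 and 1158 CPM (-0.43 ± 0.05). Itgb3, the integrin beta 3 chain, was the member that rose, from 1.14 and 1.62 to 12.2 and 12.5 CPM (3.16 ± 0.22, adjusted p = 2.87e-09). Epithelial and mammary identity genes went both ways, with 10 rises and 7 falls in 23 tested. These are 43.5% and 30.4%, against 25.6% and 26.9% of all genes tested. The tight junction genes Cldn3 (63.1, 61.0, 167 and 149 CPM, 1.35 ± 0.07) and Cldn7 (0.91 ± 0.06) and the basal keratin Krt14 (1.05 ± 0.13) were higher. Grhl2, a transcription factor of epithelial identity, fell by 0.66 ± 0.06 and Krt8 by 0.28.

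WNT and growth factor signalling genes fell in 13 and rose in 8 of 23 tested, with a median of -0.36. These are 56.5% lower and 34.8% higher, against 26.9% and 25.6% of all genes tested. Tgfa, a ligand of the epidermal growth factor receptor, had 109, 112, 49.8 and 50.01 CPM (-1.15 ± 0.05, adjusted p = 3.31e-11). Its receptor gene Egfr was higher (0.516, 0.839, 1.61 and 2.35 CPM, 1.53 ± 0.35), while Erbb2 (-0.63), Erbb3 (-0.60), Igf1r (-0.74) and Met (-0.48) were lower. Wnt9a rose by 1.198 ± 0.30, and Wnt11 had no count in control against 9 in each sgRNA1 library. Among immediate early and MAPK feedback genes, 17 of 27 fell (63.0%) and 4 rose (14.8%), with a median of -0.33. Fosl1, a partner of JUN proteins, had 116, 115, 67.0 and 66.7 CPM (-0.79 ± 0.05), and Myc had 205, 197, 157 and 156 CPM (-0.36 ± 0.04). Atf3 rose by 0.32 ± 0.08. The other 3 rises, Fos (1.06), Junb (0.22) and Klf6 (0.14), and the falls of Egr1 (-0.62) and Egr3 (-0.94), were not all stable to the choice of libraries. Without sgRNA1 library 1 the adjusted p was 0.142 for Fos, 0.0551 for Junb, 0.0699 for Egr1 and 0.147 for Egr3, and without sgRNA1 library 2 it was 0.241 for Klf6. Without control library 2 it was 0.0677 for Fos, 0.103 for Klf6 and 0.129 for Egr3.

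The largest falls were smaller than the largest rises. Bmp7, a bone morphogenetic protein (chr2:172868012-172940321, minus strand), had 45.2, 45.5, 11.1 and 11.04 CPM, 4.10-fold lower with sgRNA1 (-2.04 ± 0.08, adjusted p = 1.97e-12). Ptprz1, a receptor tyrosine phosphatase (chr6:22875502-23052916, plus strand), had 2.38, 1.68, 0 and 0.241 CPM (-4.12 ± 0.70, adjusted p = 7.72e-05), with -3.04 without sgRNA1 library 1 and -8.35 without sgRNA1 library 2. Gpnmb, a transmembrane glycoprotein of melanosomes and macrophages, had 38.3, 34.7, 10.7 and 10.6 CPM (-1.77 ± 0.10, adjusted p = 2.23e-10). In these genes each sgRNA1 library lay below each control library. Gas1, a hedgehog co-receptor, had 2.48, 2.88, 0.403 and 0.664 CPM (-2.34 ± 0.44). Gvin-ps7, a pseudogene of a giant interferon-inducible GTPase, had 64.3, 63.0, 15.5 and 13.6 CPM (-2.12 ± 0.07). Dmpk, the myotonic dystrophy kinase, had 26.2, 26.1, 7.09 and 8.14 CPM (-1.78 ± 0.13).

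The remaining members of the 12 largest falls had low counts or overlaps. Hsf2bp fell by 2.66 ± 0.45 but overlaps Rrp1b, of the opposite strand. Fer1l6 fell by 2.001 ± 0.23 and Prl3d2, a placental prolactin family gene, by 1.85 ± 0.32. Sele (E-selectin), with 2.27, 1.89, 0.654 and 0.0603 CPM, fell by 2.44 ± 0.61 (adjusted p = 0.00258), with -4.97 without sgRNA1 library 1 and -1.66 without sgRNA1 library 2. Zdhhc15 fell by 2.04 ± 0.43, and by 2.65 without sgRNA1 library 1. Dnajc6 fell by 1.84 ± 0.49 (adjusted p = 0.00405), with adjusted p = 0.0752 without control library 2. Gm10163, chosen after its values were seen, had a fitted change of -12.76, but its counts were 1698 and 0 in control and 0 in both sgRNA1 libraries, and the fitted change was 0 without control library 1.

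Sterol and fatty acid synthesis genes were lower with sgRNA1. Of 31 tested, 26 fell and none rose, with a median of -0.27. With upper quartile scaling 18 fell and 3 rose. Fasn, the fatty acid synthase gene, had 778, 814, 361 and 341 CPM (-1.18 ± 0.05, adjusted p = 2.51e-12). Acaca, the acetyl-CoA carboxylase that feeds it, had 149, 148, 80.4 and 88.1 CPM (-0.82 ± 0.05), and the desaturase gene Scd2 had 1936, 1913, 1127 and 1125 CPM (-0.77 ± 0.04). In all 3 the groups were clearly apart. On the sterol side, Lss, the lanosterol synthase, differed by -0.72, and the regulator gene Srebf2 fell by 0.55 ± 0.05.

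Ribosome biogenesis and ribosomal protein genes moved in opposite directions. Of 35 biogenesis factors, 27 fell and 2 rose, with a median of -0.38. Mdn1, the ATPase that remodels large subunit precursors, had 104, 113, 41.9 and 44.5 CPM (-1.33 ± 0.06, adjusted p = 2.07e-11). Ncl (nucleolin) had 1477, 1632, 921 and 932 CPM (-0.75 ± 0.05), and Utp20, a small subunit processing factor, 140, 140, 65.3 and 66.5 CPM (-1.09 ± 0.06). The 2 rises were Las1l (0.15) and Nop56 (0.11), which lost their calls without sgRNA1 library 1 (adjusted p = 0.151 and 0.072), Las1l also without control library 1 (adjusted p = 0.238) and Nop56 without control library 2 (adjusted p = 0.18) or sgRNA1 library 2 (adjusted p = 0.142). Among 78 cytosolic ribosomal protein genes, 62 rose and none fell, with a median of 0.41, and 72 rose with upper quartile scaling. Rps3 had 1840, 1794, 3115 and 3053 CPM (0.76 ± 0.04, adjusted p = 2.51e-10) and Rpl13a 1886, 1928, 3160 and 2926 CPM (0.67 ± 0.05). Ribosomal protein genes together took 8.70% and 8.77% of counts in control and 11.3% in each sgRNA1 library. The translation factor genes Eef2 (-0.54 ± 0.04) and Pabpc1 (3121, 3162, 1771 and 1843 CPM, -0.80 ± 0.04) fell, whereas Eef1a1 rose by 0.24 ± 0.04.

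Nuclear genes of the respiratory chain rose in 24 and fell in 4 of 33 tested, with a median of 0.21. Cox4i1, a cytochrome oxidase subunit, had 783, 796, 1152 and 1135 CPM (0.53 ± 0.05). The 4 falls were Sdha (-0.29), Ndufs1 (-0.28), Atp5a1 (-0.28) and Uqcrc1 (-0.15), the last not called without control library 1 (adjusted p = 0.256) or sgRNA1 library 2 (adjusted p = 0.119). Of 13 mitochondrially encoded mRNAs, 6 rose and 1 fell. mt-Co1 had 2193, 1970, 3151 and 3274 CPM (0.63 ± 0.05), and mt-Nd3 fell by 0.58 ± 0.23 (adjusted p = 0.0433), a call lost in 6 of the alternatives, with an adjusted p of 0.0555 under the replicate block.

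Growth and stress lists gave smaller or mixed results, to be read against 25.6% higher and 26.9% lower over all genes tested. DNA replication genes fell in 17 and rose in 9 of 36, with Mcm4 at 204, 203, 121 and 130 CPM (-0.70 ± 0.05). Mitosis genes split into 11 rises and 11 falls of 30, with a median of -0.04 that was 0.068 with upper quartile scaling. Hypoxia and glycolysis genes rose in 17 and fell in 9 of 33: Vegfa, the angiogenic factor, had 23.5, 23.7, 50.2 and 52.0 CPM (1.11 ± 0.07) and Bnip3, a mitophagy receptor, rose by 0.99 ± 0.05. Among those that fell were the glycolytic genes Hk2 (-0.43) and Pfkl (-0.30). Amino acid and ATF4 genes fell in 16 and rose in 2 of 28, with Stc2 at -0.97 and the arginine transporter gene Slc7a1 at -0.83. Both rises, Vldlr (0.58) and Phgdh (0.13), were lost without sgRNA1 library 1 (adjusted p = 0.173 and 0.265) and without control library 2 (adjusted p = 0.203 and 0.36).

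Counts in the next 5 lists are also to be read against 25.6% higher and 26.9% lower over all genes tested. Among 24 NRF2 antioxidant genes, 10 fell (41.7%) and 5 rose (20.8%), with a median of -0.07 that was 0.04 with upper quartile scaling. The 5 rises were Cbr3 (no count in control, at least 9.05-fold higher against a floor of 3 counts per library), Nqo1 at 7.95, 8.02, 25.6 and 20.2 CPM (1.52 ± 0.14), Prdx1 (0.54), Ftl1 (0.25) and Cat (0.18), the last not called without control library 2 or either sgRNA1 library (adjusted p from 0.0525 to 0.0885). Zinc and metal handling genes fell in 8 and rose in 5 of 15, and with upper quartile scaling 4 fell and 6 rose. The metallothionein gene Mt1 had 108, 105, 60.9 and 53.1 CPM (-0.90 ± 0.07), the zinc exporter gene Slc30a1 fell by 1.25 ± 0.15, and the iron exporter gene Slc40a1 rose by 1.32 ± 0.25. The other rises were of the transporters Slc39a4 (0.39), Slc39a1 (0.27) and Slc39a10 (0.18), and of Ftl1, that of Slc39a10 not called without control library 2 (adjusted p = 0.152) or sgRNA1 library 2 (adjusted p = 0.127). Unfolded protein response genes (10 rises and 7 falls of 21) had a median of -0.02, or 0.09 with upper quartile scaling. Of 15 p53 target genes, 6 rose (40%), among them Fas, Phlda3 (0.89) and Btg2 (1.05 ± 0.33, adjusted p = 0.0129). The 2 that fell (13.3%) were Aen (-0.35) and Zmat3 (-0.51). The rise of Btg2 was 0.53 without control library 1 (adjusted p = 0.205) and 0.63 without sgRNA1 library 2 (adjusted p = 0.198). Of 11 lipid handling genes, 2 fell (18.2%) and 5 rose (45.5%). Among the rises was the lipid droplet gene Plin2 at 113, 120, 183 and 190 CPM (0.68 ± 0.05). The others were Fabp5 (0.24), Acadm (0.23), Cebpb and Dgat1 (0.39, not called without control library 1, adjusted p = 0.0627, or sgRNA1 library 1, adjusted p = 0.115). Cpt1a fell by 0.35 and Lpin1 by 0.27, the latter not called without control library 2 (adjusted p = 0.118) or sgRNA1 library 1 (adjusted p = 0.134).

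The sgRNA1 and control lines were also compared after IFN-gamma, in 4 libraries that share none with the vehicle comparison. There 8825 genes (64.9%) were called, 4302 higher (31.6%) and 4523 lower (33.3%). Of the 3487 genes higher in vehicle, 1453 (41.7%) were also higher in IFN-gamma and 967 (27.7%) were lower. Of the 3654 lower in vehicle, 1989 (54.4%) were lower and 931 (25.5%) higher. For the 671 rises of 2-fold or more the median difference was 1.66 in vehicle and 0.57 in IFN-gamma, and for the 146 falls it was -1.31 and -0.53. The difference between the comparisons (the interaction) was called for 7492 genes (55.1%), 3658 of them positive (26.9%) and 3834 negative (28.2%). TMM factors were 0.963 and 0.965 in the control and 1.08 and 1.09 in the sgRNA1 libraries given IFN-gamma. With upper quartile scaling the calls there were 4840 higher and 4023 lower, and those of the interaction 3447 positive and 4059 negative. That scaling moved the median of all genes in IFN-gamma from -0.0016 to 0.069. Tried for the lists after their values were seen, it left the sign of each list median given below for IFN-gamma.

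IFN-gamma response and MHC class I genes were mostly higher with sgRNA1 in vehicle but mostly lower in IFN-gamma. Of the 31 IFN-gamma response genes, 4 were higher and 25 lower in IFN-gamma (median -0.67), and 23 had a negative interaction. Psmb9 differed by 2.01 in vehicle and by -0.36 in IFN-gamma, Gbp2 by 2.07 and -1.26, and Irf1 by 1.00 and -0.62. Ifi47 had the largest negative interaction of the named genes (-6.09). It had 131 and 128 CPM in control cells given IFN-gamma and differed there by -0.06 (adjusted p = 0.364), against 6.03 in vehicle. MHC class I genes were lower in 16 and higher in 4 of 24 (median -0.34, negative interaction in 21). Type I interferon-stimulated genes were higher in 10 and lower in 17 of 35 (median -0.14).

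**Figure D4:**
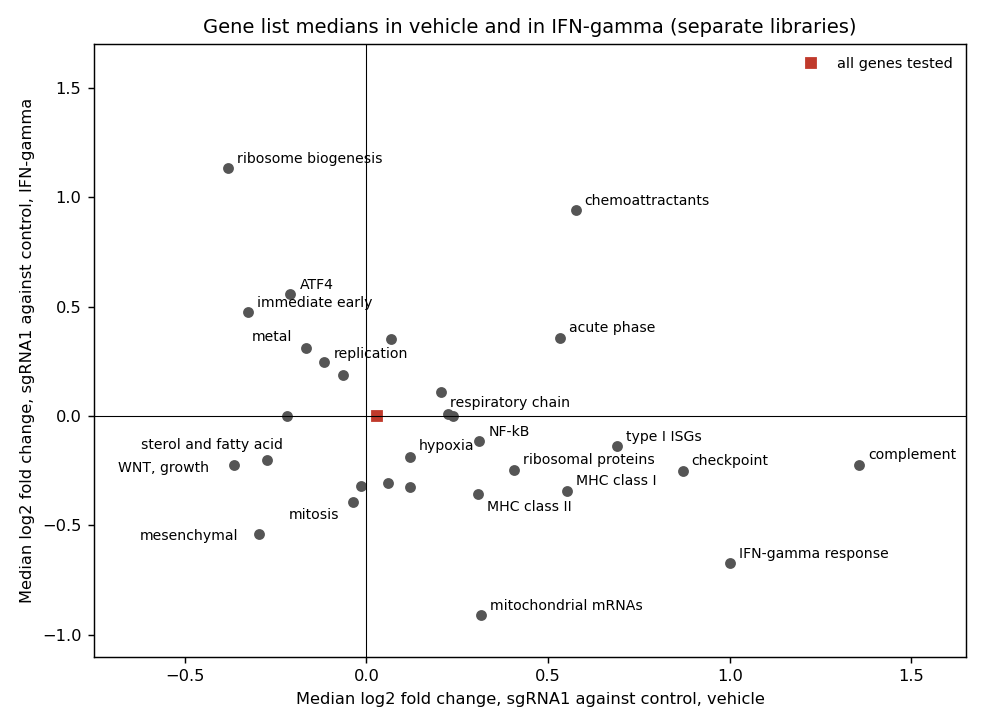
Median log2 difference of sgRNA1 against control over the tested members of each gene list, in vehicle (horizontal axis) and in IFN-gamma (vertical axis); the square is the median over all genes tested. IFN-gamma response genes lie at 1.00 and -0.67, MHC class I genes at 0.55 and -0.34, ribosome biogenesis factors at -0.38 and 1.13, and myeloid chemoattractants at 0.58 and 0.94.

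Ribosome genes also changed sign. Of the biogenesis factors, 32 were higher and 1 lower in IFN-gamma (median 1.13), with a positive interaction in 33 of 35, and Mdn1 went from -1.33 to 1.30. Of 78 ribosomal protein genes, none was higher and 49 were lower in IFN-gamma (median -0.25), with a negative interaction in 71. ATF4 and amino acid genes were higher in 23 and lower in 1 of 28, immediate early genes higher in 15 and lower in 5 of 27, and Myc rose by 1.04. Of the 31 sterol and fatty acid genes, 17 were lower and 8 higher in IFN-gamma, with a positive interaction in 16 and a negative one in 7, and Fasn differed by -0.24 there.

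Other differences were measured in both treatments. Cyp1b1 was higher by 4.07 in vehicle and 3.93 in IFN-gamma, with no called interaction (-0.13, adjusted p = 0.447). Ccl2 was higher by 2.87 and 2.84, Il6 by 5.36 and 4.48, Saa3 by 3.51 and 3.61 and Cldn3 by 1.35 and 1.52. Myeloid chemoattractants as a list were higher in 13 and lower in 4 of 18 (median 0.94), with Csf2 at 1.03 and 3.33. Among falls, Bmp7 differed by -2.04 and -2.41 (interaction -0.37, adjusted p = 0.00729), Ptprz1 by -4.12 and -4.80, Axl by -0.83 and -0.82, Tgfa by -1.15 and -1.09, Gpnmb by -1.77 and -2.50 and Fn1 by -0.61 and -0.63. In contrast, Lcn2 went from 2.53 to -0.37, Icam1 from 3.40 to -0.53, Cd74 from 3.06 to -0.43 and Mmp9 from 1.68 to -0.35. Cebpd itself did not pass the test in IFN-gamma (-0.17 ± 0.08, adjusted p = 0.0917).

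**Figure D5:**
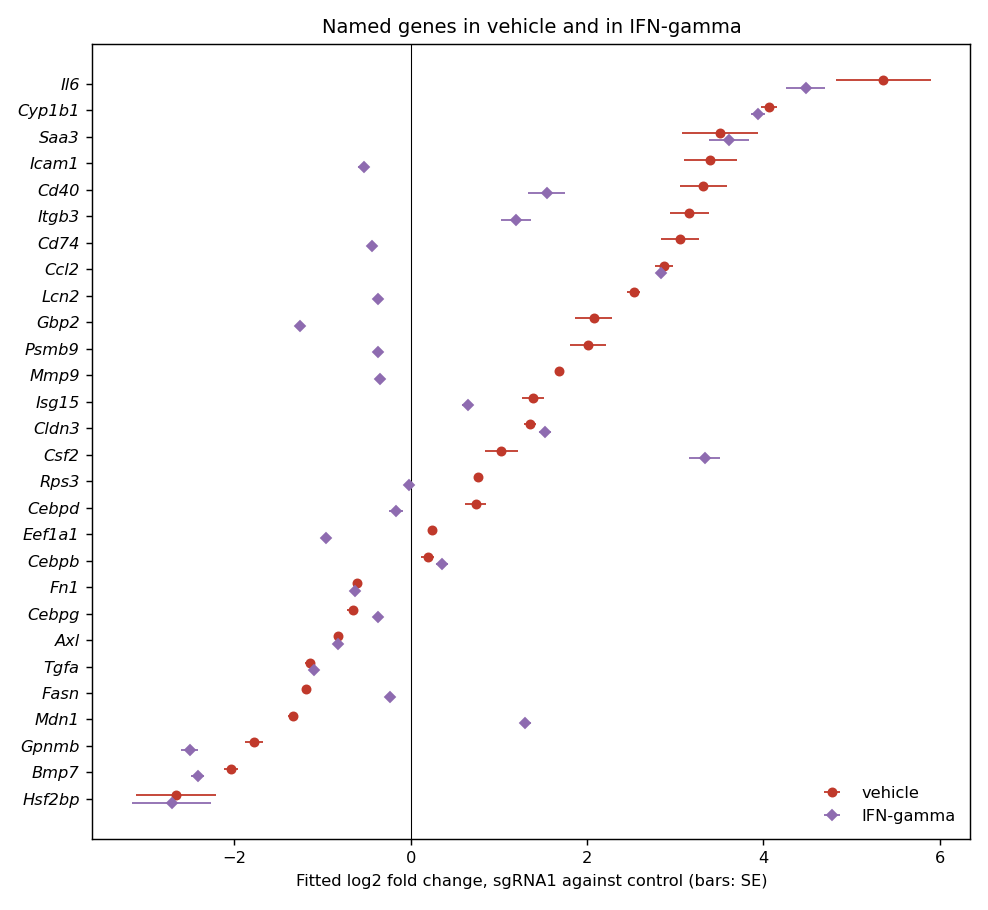
Fitted log2 fold change of sgRNA1 against control for 28 named genes in vehicle and in IFN-gamma, with bars of 1 SE. Cyp1b1, Ccl2, Saa3, Bmp7, Axl and Tgfa lie on the same side of 0 in both, while Icam1, Cd74, Lcn2, Gbp2, Psmb9 and Mmp9 lie above 0 in vehicle and below 0 in IFN-gamma.

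The other guide, sgRNA2, allows a direct test between guides in vehicle, in which 8476 genes (62.3%) differed, 4518 higher with sgRNA2 (33.2%) and 3958 lower (29.1%). The comparisons of the guides with control share the control libraries, so their values are set side by side only. Cyp1b1 had 92.8 and 83.8 CPM with sgRNA2 and did not pass the direct test (-0.13, adjusted p = 0.0785). Ccl2, in contrast, had 7.36 and 8.96 CPM with sgRNA2, and the guides differed by -1.84 (sgRNA2 minus sgRNA1, log2, adjusted p = 4.59e-12). Il6 had 0.622 and 1.30 CPM (sgRNA2 against sgRNA1 -1.32, adjusted p = 0.000872), Saa3 0.777 and 1.19 CPM (-1.31, adjusted p = 0.00149) and Csf2 2.85 and 3.12 CPM (-0.76, adjusted p = 0.00172). These genes lay higher in both sgRNA1 libraries than in both sgRNA2 libraries. Other inflammatory genes were higher with sgRNA2 in the direct test, such as C3 (1.48), Ccl5 (1.23), Cd40 (0.62) and Acod1 (0.51). Of 18 chemoattractants, 4 were higher and 8 lower with sgRNA2 than with sgRNA1. The counts were 5 and 7 of 16 acute phase genes, and 13 and 6 of 24 NF-kB genes. Cebpd had 10.6 and 8.51 CPM with sgRNA2 (-0.50 ± 0.12, adjusted p = 0.00135).

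Interferon lists were higher still with sgRNA2. In the direct test 19 of 31 IFN-gamma response genes and 27 of 35 type I genes were higher with sgRNA2, and 2 and 0 were lower. Hypoxia and glycolysis genes were higher with sgRNA2 in all 33 tested members, and Vegfa had 237 and 229 CPM there. Biogenesis factors were lower with sgRNA2 in 34 of 35 and replication genes in 34 of 36. Of the genes picked for opposite calls with the guides, Ndrg1, a hypoxia-inducible gene, had 408 and 418 CPM in the control libraries, 266 and 274 CPM with sgRNA1, but 1178 and 1161 CPM with sgRNA2 (2.12 between guides). The others were Gm49599 (3.14, overlapping Golgb1), Notch3 (2.51), Zan (2.27) and Ngef (2.14). The difference of Notch3 from control (-0.80, adjusted p = 0.0326) was not called without control library 2 (adjusted p = 0.327) or either sgRNA1 library (adjusted p = 0.154 and 0.0662). That of Ngef (-0.60) was not called without sgRNA1 library 1 (adjusted p = 0.0785). Larger changes with sgRNA1 were picked for Ccl2, Pagr1a (-4.93 between guides), Fer1l6 (1.48) and Nkd2 (-1.39). Fn1 had 1731 and 1736 CPM with sgRNA2.

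Shares of calls differed between chromosomes. Over 11754 genes with at least 1 CPM the median log2 difference was -0.01, and by chromosome it ran from -0.16 (chromosome 18) to 0.12 (chromosome 3), with 0.34 for the mitochondrial genome. Of these genes 27.4% were called higher and 30.8% lower in all, against 15.8% and 39.2% on chromosome 18, 18.9% and 42.8% on chromosome 19, and 38.2% and 24.2% on chromosome 3. Around Cebpd on chromosome 16, neighbours went in both directions, with Mcm4 at -0.70, Prkdc at -0.54, Ube2v2 at 0.28 and Ypel1 at 1.55. The transcript of the Rosa26 locus, Gt(ROSA)26Sor, the target of the control guide, was 0.34 higher with sgRNA1 (adjusted p = 0.044), a call lost whichever 1 of the 4 libraries was left out (adjusted p from 0.1 to 0.149) and under the replicate block (adjusted p = 0.0538), and its neighbour Setd5 was lower by 0.39.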

How the data were processed

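Per the labels' protocols, 12 libraries were made with an Illumina TruSeq RNA kit from 1 ug of total RNA each. That kit does not mark strand. The values the authors deposited are raw read counts for each gene. STAR 2.4.0, HTSeq, DESeq2 1.10 and the build mm10 are named in the submitters' processing notes. For the annotation and the strand setting, the labels give nothing. Titles and the treatment characteristic gave the groups.

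Genes were kept with filterByExpr in edgeR 4.0.16 (minimum count 10, minimum total 15; 13601 of 16283, holding 99.965% of counts) and scaled by TMM (factors 0.963 to 1.09). CPM were computed from these sizes. Contrasts were fitted by edgeR quasi-likelihood in a model of 6 groups fitted to all 12 libraries (residual degrees of freedom 6, common biological coefficient of variation 4.67%), with Benjamini-Hochberg adjustment over all genes tested and calls at an adjusted p below 0.05. SE is the log2 fold change divided by the root of its F statistic. The scripts were tested on simulated data. Total counts ran from 16912710 to 24784371 over all libraries, and intervals and floors cover counting error only.

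Replicates of a group differed by more than sampling noise (chi-square per degree of freedom 3.63 for control and 2.77 for sgRNA1 in vehicle), so none was treated as 1 library deposited again; this does not show that they are separate cultures. Members and gene lists were chosen with earlier results of these data known. Named genes are Cebpd and, among called genes of at least 1 CPM whose groups do not overlap, the 12 largest rises and falls by fitted change, the 6 by CPM difference, up to 4 per list, 5 with opposite calls between guides, 5 larger with sgRNA1, and 5 rises and 5 falls with the largest interaction. Called list members in counts of 5 or fewer were named too, without the limits on CPM and overlap. Other genes named for their role were chosen after their values were seen. Some genes that the rule names are not reported here. Gene coordinates are from GENCODE vM21 on GRCm38, the assembly of mm10, in which 15941 names matched and 218 more through a synonym. Alternatives were upper quartile and DESeq2 scaling, DESeq2 1.42.0, other filters, a replicate block, fits to the compared groups alone, a 1.5-fold null, and leaving out each library. R 4.3.3 was used.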

Additional observations from a re-analysis of the deposited data

Results flagged for a closer look

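The sgRNA1 difference changed between vehicle and IFN-gamma, by the interaction test, for 7492 of 13601 genes, and the guides differed in the direct test in vehicle for 8476. 10 named genes were picked by the size of the interaction, given as the difference in IFN-gamma minus that in vehicle on the log2 scale. Among genes higher with sgRNA1 in vehicle it was -6.09 for Ifi47, -4.95 for Pagr1a, -4.51 for Mgp, a matrix Gla protein gene, -4.19 for Gm28439 and -4.19 for Zfp773. Mgp had 1.29 and 0.734 CPM in control and 4.33 and 4.59 CPM with sgRNA1. Gm28439 had 0, 1.36, 3.32 and 6.64 CPM, and its difference in vehicle (2.85) was not called without control library 1 (1.85, adjusted p = 0.0736) or sgRNA1 library 2 (adjusted p = 0.0721), was 9.62 without control library 2 and was not called by DESeq2 (adjusted p = 0.108).

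Among genes lower with sgRNA1 in vehicle the interaction was 4.01 for Egr1, an immediate early transcription factor, 3.38 for Prl3d2, 3.32 for Slc16a6, a monocarboxylate transporter family gene, and 2.94 for Trmt61a, a tRNA methyltransferase subunit. It was -4.29 for Asb2, which was lower in vehicle (-0.79) and lower still in IFN-gamma (-5.08). The vehicle difference of Asb2 was not called without control library 1 (adjusted p = 0.0618) or sgRNA1 library 2 (adjusted p = 0.107). Between guides (sgRNA2 minus sgRNA1) the picked genes differed by 3.14 for Gm49599, 2.51 for Notch3, 2.27 for Zan, 2.14 for Ngef, 2.12 for Ndrg1, 1.48 for Fer1l6, -1.39 for Nkd2, -1.84 for Ccl2 and -4.93 for Pagr1a. Pagr1a had 0 and 0.624 CPM with sgRNA2, against 6.79 and 11.9 CPM with sgRNA1. As these genes were chosen by the size of these differences, the values are a description.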

How the results depend on the processing

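With 2 libraries in a group, the precision of lowly expressed genes is set by a few counts, and upper quartile scaling shifts all medians by 0.10. No total count of calls moved by over 1.5 times. The falls of 2-fold or more did, from 146 to 96 with upper quartile scaling, as did some list counts given with their list. The test against a 1.5-fold null, which called 285 genes lower, has no 2-fold cut and is not the same count. For sgRNA1 against control in vehicle the count was 7141 and ran from 6244 (DESeq2) to 7284 (upper quartile), and from 6076 to 6219 without 1 library. At 2-fold or more it was 817, from 693 (DESeq2) to 922 (upper quartile). Against the 1.5-fold null, without a 2-fold cut, 773 genes were called. With upper quartile scaling 62.8% of calls were higher, against 48.8%, and against the 1.5-fold null 63.1% were higher, against 82.1% of those at 2-fold. Without 1 library the counts were 7907 to 7998 in IFN-gamma, 6843 to 6959 for the interaction and 7398 to 7629 between guides. Of the 194 genes named by rule, 14 lost their call with DESeq2, 11 with upper quartile scaling, 1 under the replicate block and 12 to 25 without 1 library. The median of the mitosis list reversed from -0.04 to 0.068 with upper quartile scaling, and the fitted change of Gm10163 went to 0 without control library 1 and to -13.77 without control library 2. The counts of Gm10163 in control were all in library 1. The mitosis median lay near 0, and the same scaling moved the median of all genes from 0.03 to 0.13.

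Library numbers did not pair the samples in vehicle (correlation of deviations 0.0085 between control and sgRNA1). A replicate block gave 7110 calls, 800 at 2-fold or more, 8804 in IFN-gamma, 7460 for the interaction and 8460 between guides. In IFN-gamma the correlation was -0.127, and on those 4 libraries the block gave 9183 calls as numbered and 8995 crossed, an alternative chosen after seeing the data.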
